A study of Homo sapiens
Mus musculus with 16 samples.

Results

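Ribosome biogenesis genes were examined in human bladder tumour cells grown in mice and given nintedanib, alpelisib or both. The set was 44 genes whose proteins build ribosomes in the nucleolus, found by their symbols among the 23368 genes of the human expression table, and all 44 had a row. The list was drawn up by function, with earlier results of these data known. By role it held 4 genes of RNA polymerase I transcription, 7 of the small nucleolar ribonucleoproteins (snoRNPs), 12 of small subunit assembly, 18 of large subunit assembly and 3 nucleolar proteins listed as scaffolds.

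ScaBER, an established line from a human bladder squamous cell carcinoma, was grown as xenografts in Hsd:Athymic Nude-Foxn1nu mice, which lack a thymus and so most T cells. The groups were nintedanib at 40 mg/kg with alpelisib (BYL719) at 25 mg/kg (combination), nintedanib at 40 mg/kg, alpelisib at 25 mg/kg, and vehicle (0.5% methylcellulose with 0.1% Tween80). Tumours were taken on day 14, and each of the 4 groups had 4 libraries, 16 in all. Nintedanib blocks receptor kinases for FGF, PDGF and VEGF, alpelisib blocks PI3K alpha, and the study asked how they act together on tumour and stroma. All results rest on 1 cell line, and the labels do not tie libraries to animals, so p-values measure only the spread between these libraries.

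Ribosome assembly starts when RNA polymerase I transcribes the ribosomal RNA precursor in the nucleolus. SnoRNPs modify and help fold this RNA, the small subunit processome and the large subunit assembly factors cut it and add ribosomal proteins, and the particles leave for the cytoplasm. The pathway is costly for a growing cell, and PI3K, mTOR and MYC signalling are known to raise it in tumours.

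The deposited values were reads per gene divided by a size factor for each library, called values from here on, and differences were taken on the log2(value + 1) scale. Human reads per library ran from 8303617 (nintedanib 4) to 18568119 (combination 2). Mouse reads were 19.3% (vehicle 3) to 34.0% (nintedanib 4) of all reads. All 10 squamous tumour markers checked, keratins and TP63 among them, had reads in every library, and their values summed to 257924 to 469767. In the human table, markers of other cell types summed to 45781 to 91485 for fibroblasts (6 genes), 275 to 653 for leukocytes (5 genes) and 7.33 to 41.8 for endothelium (5 genes). Single fibroblast values ran from 9.34 in a vehicle library to 89828.5 in a nintedanib library, where the top gene made up nearly the whole sum. Host skeletal muscle transcripts made up 2.56% of mouse reads in combination 1 and 4.24% in nintedanib 4, against 0.583% or less in the other libraries. The 7 muscle markers of the human table summed to 1575 and 2417 in the same 2 libraries, against 81.1 to 229 in the others. Human and mouse values had separate size factors: in combination 1, 1 read was a value of 1.05 in human and 0.739 in mouse. A human value is thus relative to the other human genes of its library. It gives neither the number of tumour cells nor the RNA per cell.

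Every one of the 44 genes passed the filter on low values (at least 1 in at least 4 libraries), as did 17663 human genes. UTP15 had the fewest reads in a library, 28, and NPM1 the most, 18066. Levels were compared between libraries and not between genes.

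The set stood lowest in combination 3 and 4, followed by nintedanib 2 and combination 2. The median difference of the 44 genes from the vehicle mean was 0.10, -0.32, -0.43 and -0.40 on the log2 scale in combination libraries 1 to 4. It was -0.17, -0.39, -0.060 and -0.13 in the nintedanib libraries, -0.052, 0.11, -0.23 and 0.071 in the alpelisib libraries, and 0.091, 0.14, -0.031 and -0.11 in the vehicle libraries. Combination 1 thus stood with the vehicle libraries while the other 3 lay below all of them, and the groups overlapped.

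**Figure D1:**
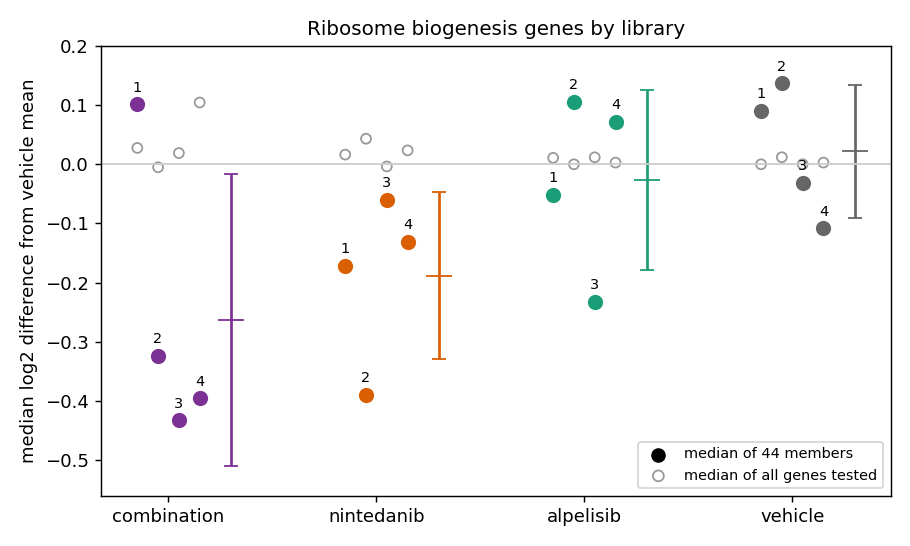
Median log2 difference from the vehicle mean in each of the 16 libraries, for the 44 ribosome biogenesis genes (filled circles, numbered by replicate) and for all genes tested (open circles); bars are the mean ± SD of the 4 filled circles of a group. Combination 2, 3 and 4 lie at -0.32 to -0.43, below all vehicle libraries, and combination 1 lies at 0.10.

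Counts of genes gave the same picture. In combination 2, 3 and 4, 26, 32 and 29 of the 44 genes lay below every vehicle library, where 20.4%, 19.8% and 24.2% of all genes tested did. In combination 1 only 5 of the 44 did, against 12.5% of all genes. The count was also high in single libraries of the other groups: it was 21, 28, 11 and 13 in nintedanib 1 to 4 (18.9%, 21.5%, 17.3% and 18.1% of all genes) and 6, 7, 19 and 4 in alpelisib 1 to 4 (12.6%, 14.0%, 17.3% and 12.7%). Combination 1 had the highest value of its group in 27 of the 44 genes. Combination 4 held the lowest value of all 16 libraries for 15 genes, combination 3 for 9 and combination 2 for 8. Such highest and lowest values were not counted over all genes, so these counts cannot be read as particular to the set. Combination 4 also had the largest share of all genes below every vehicle library (24.2%). Combination 1 was also 1 of the 2 libraries rich in host muscle transcripts, and the part of this in its values was not tested.

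The vehicle libraries were not alike either. Vehicle 1 was the highest of all 16 libraries in 14 genes, among them PES1, RRP12, BYSL and NOP16, yet the lowest vehicle library in 13 others, such as NOP58, NPM1, WDR43 and GNL3. Vehicle 4 was the highest vehicle library in 0 genes and the lowest in 18. These counts were not made over all genes, so whether they are particular to the set is not known.

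**Figure D2:**
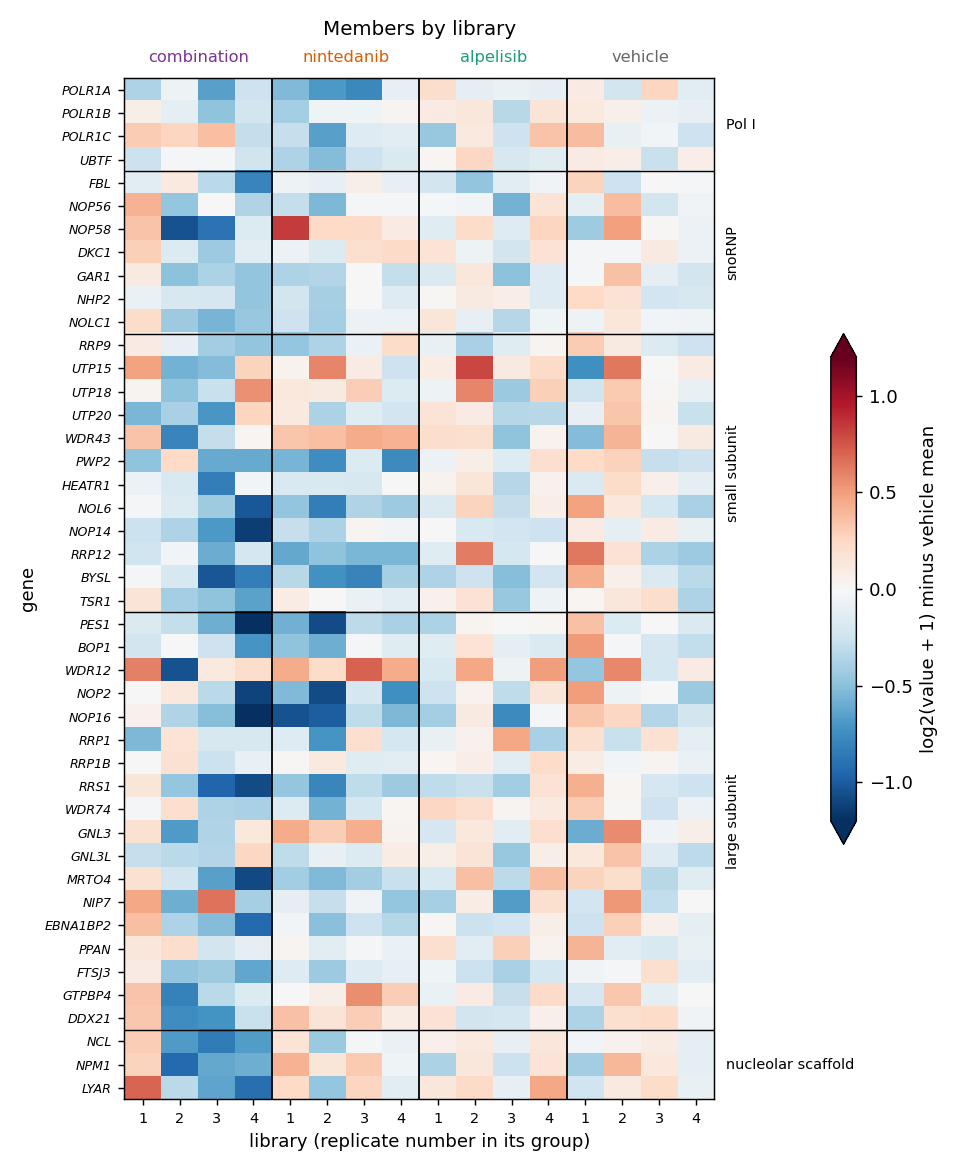
Difference of log2(value + 1) from the vehicle mean for each of the 44 genes (rows, grouped by role) in each library (columns); values beyond the ends of the colour bar take its end colours. Combination 2, 3 and 4 are mostly blue (lower), combination 1 is mixed, and vehicle 1 is red in PES1, NOP16 and RRP12 but blue in NOP58, NPM1 and GNL3.

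With both drugs, nearly all of the 44 genes had a lower mean than with vehicle, by modest amounts, and none passed the test. The fitted difference was below 0 in 41 of the 44 genes, where 46.5% of all genes tested were, and its median was -0.29 against 0.031 for all genes. No gene of the set had an adjusted p under 0.05 by limma (0 of 44; 0% of all genes tested), nor by edgeR, DESeq2 or limma-voom. At an unadjusted p under 0.05, 6 of the 44 were lower and 0 higher, where 3.69% and 4.47% of all genes were. These were NOP14, PES1, RRS1, BYSL, NCL and FTSJ3. The count rests on single libraries: it was 17 (5.87% of all genes) without combination 1, 2 (2.33%) without combination 3, 2 (2.68%) without combination 4, and 3 (3.44%) without vehicle 2.

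**Figure D3:**
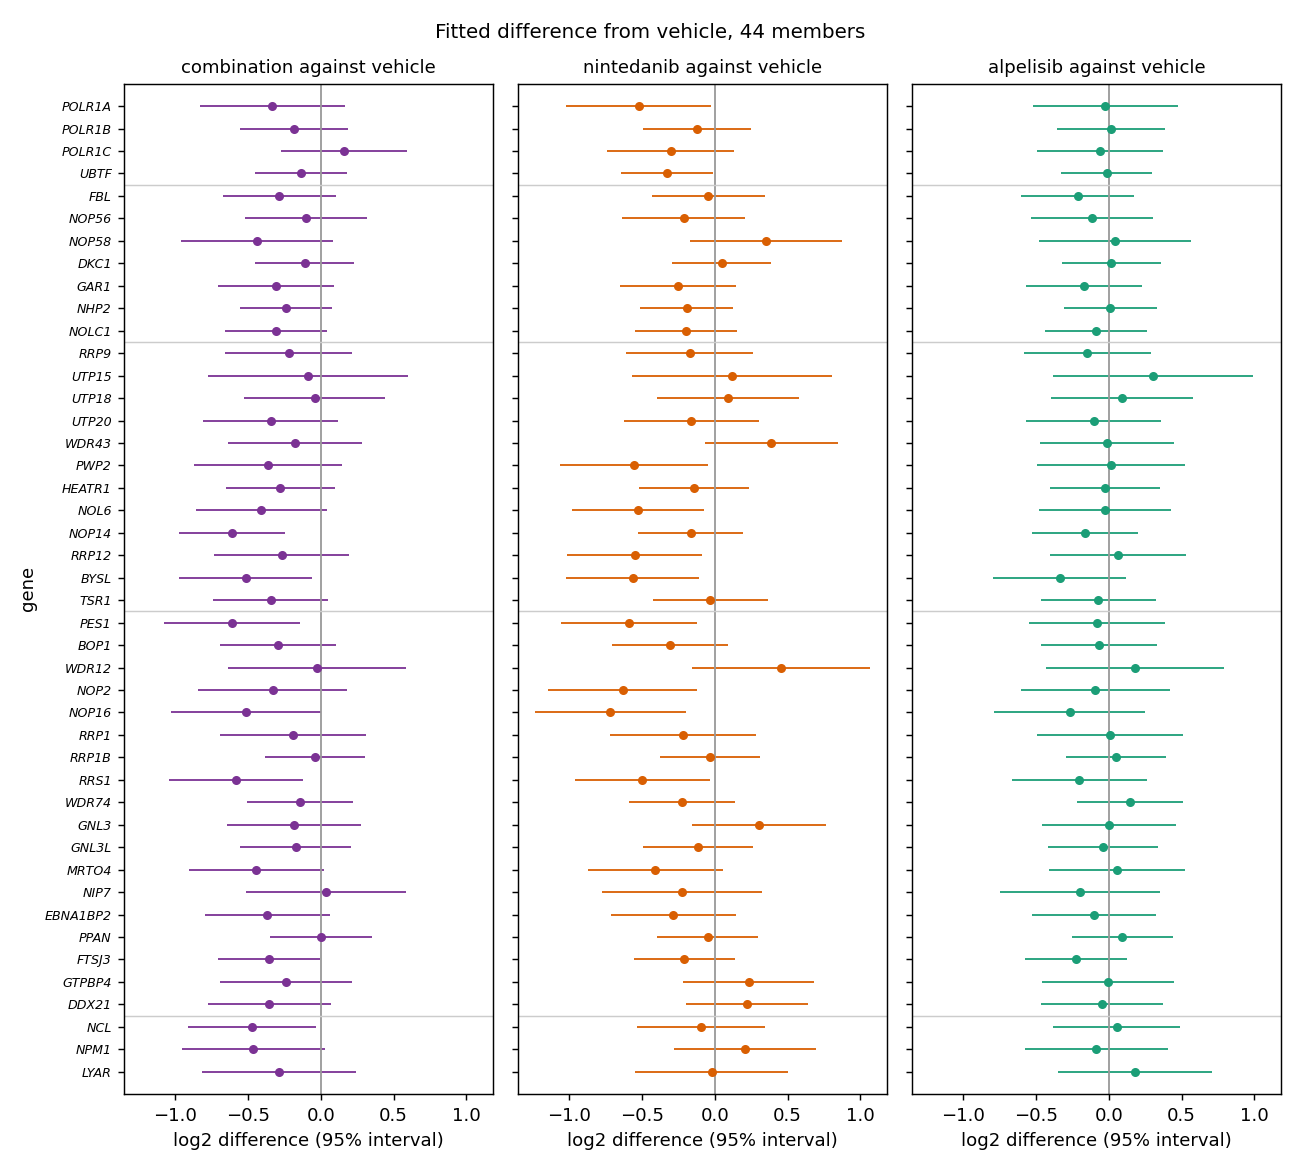
Fitted log2 difference from vehicle with its 95% interval for the 44 genes in combination (left), nintedanib (middle) and alpelisib (right) tumours, in order of role. With the combination 41 of 44 points lie left of 0, with nintedanib 34 and with alpelisib 27, and all 3 panels share the 4 vehicle libraries.

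Among the RNA polymerase I genes, none stood apart from vehicle with the combination. POLR1A, the largest catalytic subunit, had 83.8, 103, 68.4 and 90.9 in combination tumours against 116, 92.7, 130 and 98.4 in vehicle tumours, a log2 difference of -0.33 ± 0.24 (SE; adjusted p = 0.743, limma). The groups overlapped. POLR1B, the second subunit of the catalytic core, differed by -0.18 ± 0.18 (adjusted p = 0.822) and UBTF, the factor that binds ribosomal DNA, by -0.14 ± 0.15 (adjusted p = 0.848). POLR1C, a subunit shared with RNA polymerase III, had the most positive difference of the 44 genes, 0.16 ± 0.21 (adjusted p = 0.876). Single libraries moved these small values: POLR1B was -0.084 without combination 3, UBTF -0.22 without vehicle 3, and POLR1C 0.31 without combination 4, 0.28 without vehicle 1, 0.091 without combination 3 and 0.076 without vehicle 4.

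All 7 snoRNP genes had a difference below 0, with a median of -0.28. NOLC1, a nucleolar chaperone of snoRNPs, had 1962, 1239, 1139 and 1227 in combination tumours against 1608, 1844, 1644 and 1631 in vehicle tumours (-0.31 ± 0.17, adjusted p = 0.663). Combination 2 to 4 lay below all vehicle libraries here and combination 1 above them. NOP58, a core protein of the box C/D particles that guide ribose methylation, had 2517, 966, 1075 and 1775 against 1480, 2795, 2006 and 1890 (-0.44 ± 0.25, adjusted p = 0.679). GAR1 and NHP2, core proteins of the box H/ACA particles that make pseudouridine, differed by -0.31 ± 0.19 (adjusted p = 0.704) and -0.24 ± 0.15 (adjusted p = 0.715). Without combination 1 the differences of NOLC1 and NOP58 were -0.48 and -0.70. That of NOP58 was -0.24 without combination 2, -0.29 without combination 3 and -0.28 without vehicle 2, GAR1 was -0.19 without vehicle 2, and NHP2 was -0.16 without vehicle 1.

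The 12 small subunit genes were all below 0, with a median of -0.31. NOP14, a factor of the small subunit processome, had 781, 724, 581 and 426 in combination tumours against 998, 869, 999 and 881 in vehicle tumours. All 4 combination libraries were lower than the lowest vehicle library, which held for 1 of the 44 genes and for 1.08% of all genes tested in this direction. Its difference of -0.61 ± 0.17 was the most negative of the set (adjusted p = 0.505), and ranged from -0.73 to -0.44 over the alternatives tried. BYSL, which binds maturing small subunits, had 452, 400, 223 and 257 against 618, 476, 404 and 364 (-0.51 ± 0.22, adjusted p = 0.599), with combination 1 and 2 inside the vehicle range. Without combination 3 it was -0.34. NOL6, a processome protein, and TSR1, which acts on late small subunits, differed by -0.41 ± 0.22 (adjusted p = 0.657) and -0.35 ± 0.19 (adjusted p = 0.665). NOL6 was -0.20 without combination 4 and -0.25 without vehicle 1.

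Of the 18 large subunit genes, 16 were below 0, with a median of -0.27. PES1, the scaffold of the PeBoW complex that large subunit assembly needs, had 1149, 1065, 864 and 494 in combination tumours against 1657, 1156, 1291 and 1147 in vehicle tumours. Combination 4 was by far the lowest, and combination 1 was level with the lowest vehicle library. The difference was -0.61 ± 0.22 (adjusted p = 0.542), and -0.35 without combination 4. RRS1, which in yeast helps to place the small ribosomal RNA of the large subunit, had 1589, 1041, 743 and 680 against 1928, 1460, 1248 and 1204 (-0.58 ± 0.22, adjusted p = 0.550), and only combination 1 reached into the vehicle range. NOP16, a protein of large subunit precursors, and FTSJ3, a methyltransferase of the precursor RNA, differed by -0.52 ± 0.25 (adjusted p = 0.611) and -0.36 ± 0.17 (adjusted p = 0.610). Without combination 4 the NOP16 difference was -0.28.

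The scaffold proteins had a median of -0.46, and here combination 1 stood farthest from the other 3. NCL (nucleolin), which binds the ribosomal RNA precursor, had 12972, 6608, 5888 and 6630 in combination tumours against 10359, 10946, 11279 and 9741 in vehicle tumours (-0.47 ± 0.21, adjusted p = 0.610). Combination 2 to 4 were below all vehicle libraries and combination 1 above them, and without combination 1 the difference was -0.73. NPM1 (nucleophosmin), the main protein of the granular outer layer of the nucleolus, had 14177, 6170, 7699 and 7842 against 8801, 15476, 12857 and 10906 (-0.46 ± 0.24, adjusted p = 0.643). It was -0.71 without combination 1 and -0.31 without combination 2. NPM1 has 50 pseudogenes named after it in the RefSeq gene table, 0 of which have a row of their own, so reads of such copies could be counted with it. LYAR, a nucleolar zinc finger protein, had 923, 452, 366 and 302 against 480, 610, 661 and 532 (-0.29 ± 0.26, adjusted p = 0.801). Its difference was -0.62 without combination 1, -0.18 without combination 3 and -0.084 without combination 4.

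**Figure D4:**
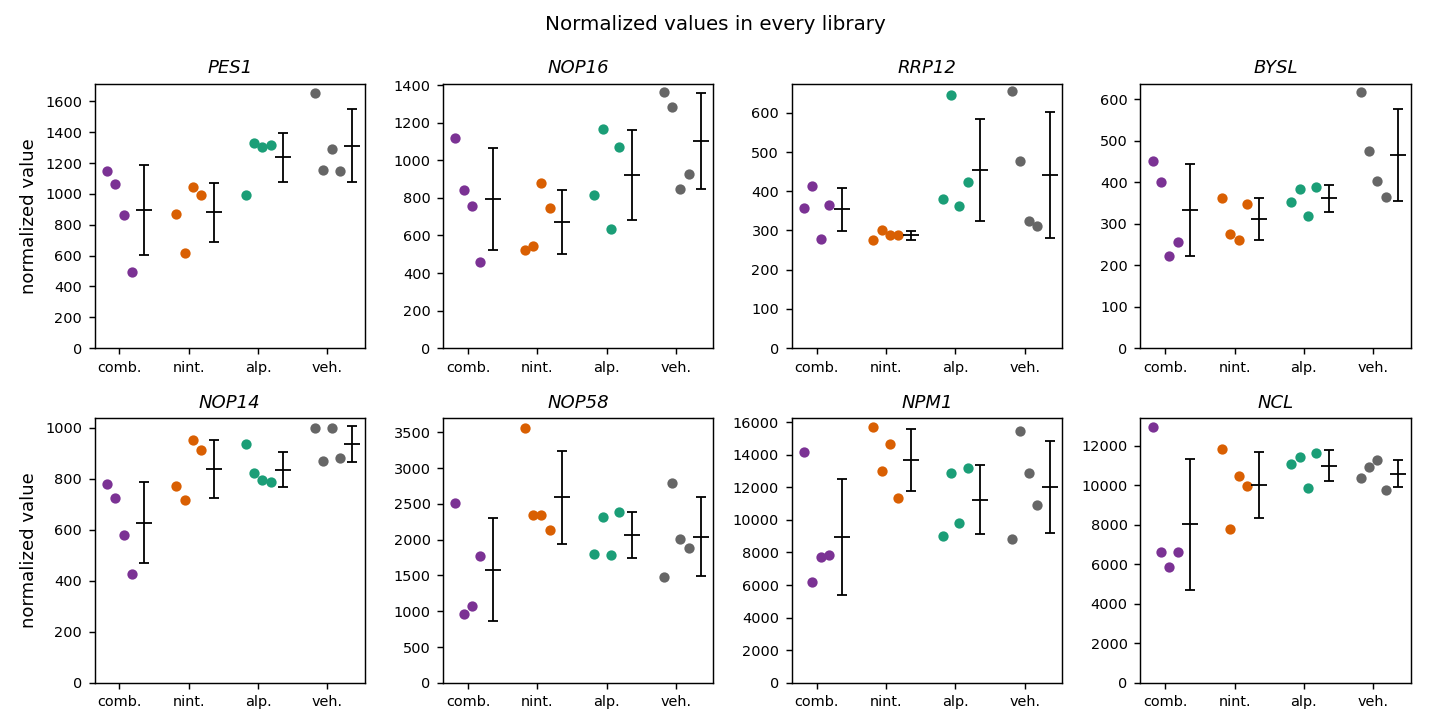
Values of 8 genes in every library, in the order combination, nintedanib, alpelisib and vehicle, with libraries 1 to 4 from left to right; bars are the mean ± SD (n = 4). NOP14 is below the vehicle range in all 4 combination libraries, RRP12 is below it in all 4 nintedanib libraries, and NCL and NPM1 are lowest in combination 2, 3 and 4.

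With nintedanib alone most of the 44 genes had a lower fitted mean than with vehicle, some had a higher one, and none passed the test. The fitted difference from vehicle was below 0 in 34 of the 44, where 48.2% of all genes tested were, with a median of -0.18 against 0.021 for all genes. No gene of the set had an adjusted p under 0.05 by limma (0 of 44; 0% of all genes), edgeR, DESeq2 or limma-voom. At an unadjusted p under 0.05, 10 were lower and 0 higher, where 4.7% and 6.88% of all genes were. They were POLR1A, UBTF, PWP2, NOL6, RRP12, BYSL, PES1, NOP2, NOP16 and RRS1. The lower count was 1 (2.36% of all genes) without vehicle 1, 3 (3.11%) without nintedanib 2, 5 (4.37%) without vehicle 2 and 6 (4.05%) without nintedanib 1. Without vehicle 2, 8 genes were counted in either direction (11.7% of all genes), so the count of 0 higher also rests on that library. In 5 of the 44 genes every nintedanib library lay below every vehicle library, where 3.22% of all genes did so: NOLC1, RRP12, BYSL, PES1 and RRS1.

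The RNA polymerase I genes had a median of -0.32 with nintedanib. POLR1A had 74.8, 66.8, 63.0 and 101 in nintedanib tumours, of which nintedanib 1 to 3 lay below the 4 vehicle libraries given above. Its difference was -0.52 ± 0.24 (adjusted p = 0.415). UBTF had 798, 720, 869 and 919 in nintedanib tumours against 1106, 1095, 860 and 1093 in vehicle tumours (-0.33 ± 0.15, adjusted p = 0.415).

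Among the small subunit genes, RRP12, which helps to export precursor subunits, was nearly constant with nintedanib, at 275, 302, 287 and 288, against 655, 477, 325 and 312 with vehicle. The groups did not overlap, though vehicle 3 and 4 were close to the nintedanib libraries. The difference was -0.55 ± 0.22 (adjusted p = 0.369), and -0.34 without vehicle 1. BYSL had 362, 276, 262 and 347 with nintedanib, under its lowest vehicle value of 364 (-0.56 ± 0.22, adjusted p = 0.355). WDR43, a protein of the early processome complex that also works in precursor transcription, had 901, 922, 974 and 959 with nintedanib against 500, 951, 717 and 773 with vehicle (0.39 ± 0.22, adjusted p = 0.501).

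The large subunit genes held both ends of the nintedanib range. NOP16 had 524, 544, 878 and 744 in nintedanib tumours against 1363, 1283, 846 and 927 in vehicle tumours, the most negative difference of the set (-0.72 ± 0.25, adjusted p = 0.312). Only nintedanib 3 entered the vehicle range. PES1 had 872, 614, 1043 and 993 with nintedanib, all under the lowest vehicle value of 1147 (-0.59 ± 0.22, adjusted p = 0.345). NOP2, a ribosomal RNA methyltransferase, differed by -0.63 ± 0.25 (adjusted p = 0.351).

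The 3 subunits of the PeBoW complex did not share a direction with nintedanib. PES1 is given above, and BOP1 differed from vehicle by -0.31 ± 0.19 (adjusted p = 0.549). WDR12 had 219, 188, 262 and 219 in nintedanib tumours against 116, 240, 139 and 172 in vehicle tumours, the most positive difference of the 44 genes at 0.45 ± 0.30 (adjusted p = 0.563), and the groups overlapped. Differences above 0 were also fitted for NOP58 (0.35 ± 0.25, adjusted p = 0.60), GNL3, the GTPase nucleostemin (0.30 ± 0.22, adjusted p = 0.613), and NPM1 (0.21 ± 0.24, adjusted p = 0.760). Without vehicle 1 the WDR12 and NOP58 differences were 0.30 and 0.21, and NOP58 was 0.19 without nintedanib 1. The scaffold genes as a group had a median of -0.022.

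With alpelisib alone the genes stayed close to vehicle. The difference was below 0 in 27 of the 44 genes, where 48.9% of all genes tested were, and the median was -0.028 against 0.0055 for all genes. No gene had an adjusted p under 0.05 by limma (0 of 44; 0% of all genes), edgeR, DESeq2 or limma-voom, and at an unadjusted p under 0.05 there were 0 lower and 0 higher, where 0.793% and 1.69% of all genes were. In 0 of the 44 genes did the libraries lie wholly below vehicle, where 0.685% of all genes did.

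The 95% interval of the alpelisib difference excluded a log2 change of 1 in both directions for all 44 genes. Its lowest bound was -0.80 (BYSL) and its highest 0.99 (UTP15). BYSL had 353, 384, 319 and 390 in alpelisib tumours against 618, 476, 404 and 364 in vehicle tumours, the most negative difference (-0.34 ± 0.22, adjusted p = 1). UTP15, a protein of the early processome complex, had 68.4, 113, 69.4 and 75.4 against 38.1, 101, 64.5 and 69.0, the most positive difference (0.31 ± 0.33, adjusted p = 1). FBL (fibrillarin), the methyltransferase of the box C/D particles, differed by -0.21 ± 0.19 (adjusted p = 1). Without vehicle 1 these differences were -0.19 for BYSL, 0.059 for UTP15 and -0.13 for FBL. UTP15 was also 0.14 without alpelisib 2 and 0.52 without vehicle 2, and FBL -0.13 without alpelisib 2. The same interval excluded a change of that size for 41 of 44 genes with the combination and 36 of 44 with nintedanib. A p that misses the threshold does not show that these genes were equal in the groups.

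The combination was next set against each drug alone. Against nintedanib, the difference was below 0 in 29 of the 44 genes, where 49.2% of all genes tested were, with a median of -0.060 against 0.0079 for all genes. No gene had an adjusted p under 0.05 by limma (0 of 44; 0% of all genes), edgeR, DESeq2 or limma-voom. Unadjusted p-values under 0.05 were found for 7 genes lower and 1 higher, where 5.24% and 4.03% of all genes were. NOP58, NPM1, DDX21, WDR43, NOP14, GNL3 and GTPBP4, a GTPase of large subunit precursors, were lower, and POLR1C was higher. In 0 of the 44 genes did all combination libraries lie below all nintedanib libraries, where 1.66% of all genes did so. The lower count was 11 (6.01%) without combination 1, 4 (3.22%) without combination 2 and 4 (4.95%) without nintedanib 3.

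NOP58 had the values 2517, 966, 1075 and 1775 in combination tumours against 3560, 2344, 2341 and 2137 in nintedanib tumours. Only combination 1 was inside the nintedanib range, and the difference was -0.79 ± 0.25 (adjusted p = 0.376). DDX21, an RNA helicase of the nucleolus, had 4179, 1990, 2030 and 2782 against 4260, 3719, 4103 and 3569 (-0.58 ± 0.20, adjusted p = 0.390), again with only combination 1 inside the nintedanib range. NPM1 had 15714, 12979, 14656 and 11363 in nintedanib tumours, which combination 1 alone reached (-0.67 ± 0.24, adjusted p = 0.390). WDR43 had 906, 414, 589 and 727 against its nintedanib values given above (-0.57 ± 0.22, adjusted p = 0.431), and -0.36 without combination 2. GNL3 differed by -0.49 ± 0.22 (adjusted p = 0.496), and by -0.32 without combination 2. POLR1C had 436, 422, 453 and 288 against 291, 224, 316 and 321 (0.46 ± 0.21, adjusted p = 0.495), with combination 4 inside the nintedanib range.

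Against alpelisib, the combination had lower fitted means in 41 of the 44 genes, where 48.6% of all genes tested were lower, with a median of -0.24 against 0.012 for all genes. No gene had an adjusted p under 0.05 by limma (0 of 44; 0.00566% of all genes, which is 1 gene outside the set), edgeR, DESeq2 or limma-voom. At an unadjusted p under 0.05, 4 genes were lower and 0 higher, where 3.74% and 4.71% of all genes were. These were NOP14, NCL, PES1 and MRTO4. The count was 13 (5.79%) without combination 1, 2 (2.47%) without combination 3, 2 (2.84%) without alpelisib 2 and 2 (3.15%) without alpelisib 4.

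NOP14 had 936, 824, 797 and 787 in alpelisib tumours, and all 4 combination libraries were below these (-0.45 ± 0.17, adjusted p = 0.544). It was the only gene of the set whose combination and alpelisib libraries did not overlap, where 1.49% of all genes did not in this direction. PES1 had 995, 1330, 1304 and 1316 with alpelisib, which combination 1 and 2 reached (-0.53 ± 0.22, adjusted p = 0.563). MRTO4, a placeholder for a stalk protein of the large subunit in yeast, had 1327, 1004, 743 and 552 in combination tumours against 1028, 1500, 941 and 1506 in alpelisib tumours (-0.50 ± 0.22, adjusted p = 0.583). NOP58 differed by -0.48 ± 0.25 (adjusted p = 0.622). Without combination 4 the differences of NOP14, PES1 and MRTO4 were -0.27, -0.27 and -0.29, while NOP58 was -0.74 without combination 1 and -0.28 without combination 2.

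The interaction asks whether the nintedanib difference was the same with and without alpelisib. Its median over the 44 genes was -0.033, against -0.0037 for all genes, and it was below 0 in 25 of them, where 50.3% of all genes were. No gene passed by limma (0 of 44; 0% of all genes), edgeR, DESeq2 or limma-voom. At an unadjusted p under 0.05 there was 1 gene lower and 0 higher, where 3.72% and 2.51% of all genes were. This gene was NOP58, at -0.84 ± 0.36 (adjusted p = 0.792): its nintedanib difference was -0.48 on top of alpelisib and 0.35 without it. The lower count was 8 (4.27%) without combination 1. In either direction, 4 genes were counted without vehicle 2 (6.48% of all genes), 4 without combination 4 (10.4%), 2 without alpelisib 3 (5.5%), and 0 without combination 2, combination 3, nintedanib 1, alpelisib 2 or vehicle 1 (4.47% to 6.02%). BYSL had 0.39 ± 0.31 (adjusted p = 0.907), WDR43 -0.56 ± 0.31 (adjusted p = 0.831) and DDX21 -0.53 ± 0.29 (adjusted p = 0.818). BYSL was 0.22 without combination 1 and 0.24 without vehicle 1, and WDR43 was -0.35 without combination 2. The 95% interval excluded a log2 of 1 in both directions for only 29 of the 44 genes, so the interaction was the least precisely measured of the comparisons.

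Averaging each drug over both levels of the other uses all 16 libraries. The nintedanib average was below 0 in 40 of the 44 genes, where 45.8% of all genes were, with a median of -0.20 against 0.034 for all genes. Again 0 of 44 passed by limma (0% of all genes), edgeR, DESeq2 or limma-voom. In this average 14 genes were lower and 0 higher at an unadjusted p under 0.05, where 6.96% and 7.2% of all genes were, and the count was 9 (5.06%) without nintedanib 2. PES1 had the smallest p of the set (-0.56 ± 0.16, adjusted p = 0.180), followed by NOL6 (-0.45 ± 0.15, adjusted p = 0.219) and MRTO4 (-0.45 ± 0.16, adjusted p = 0.223). The smallest adjusted p that any named gene reached under any alternative was 0.065, for PES1 in this average once values were scaled to human and mouse reads together.

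The alpelisib average was below 0 in 30 of the 44 genes, where 48.5% of all genes were, with a median of -0.049 against 0.0071 for all genes. It gave 0 of 44 by limma (0% of all genes), edgeR, DESeq2 or limma-voom, and 4 genes lower and 0 higher at an unadjusted p under 0.05, where 1.93% and 2.21% of all genes were. These were NOP14 (-0.30 ± 0.12), NPM1 (-0.38 ± 0.17), DDX21 (-0.31 ± 0.14) and NOP58 (-0.37 ± 0.18), each with an adjusted p of 1. The count was 9 (3.03%) without combination 1. It was 2 without combination 2, alpelisib 1 or vehicle 4, where 3.57% to 4.22% of all genes were counted in either direction. It was 1 without combination 3, nintedanib 1, nintedanib 3, alpelisib 3, vehicle 2 or vehicle 3, where 2.92% to 3.83% of all genes were.

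**Figure D5:**
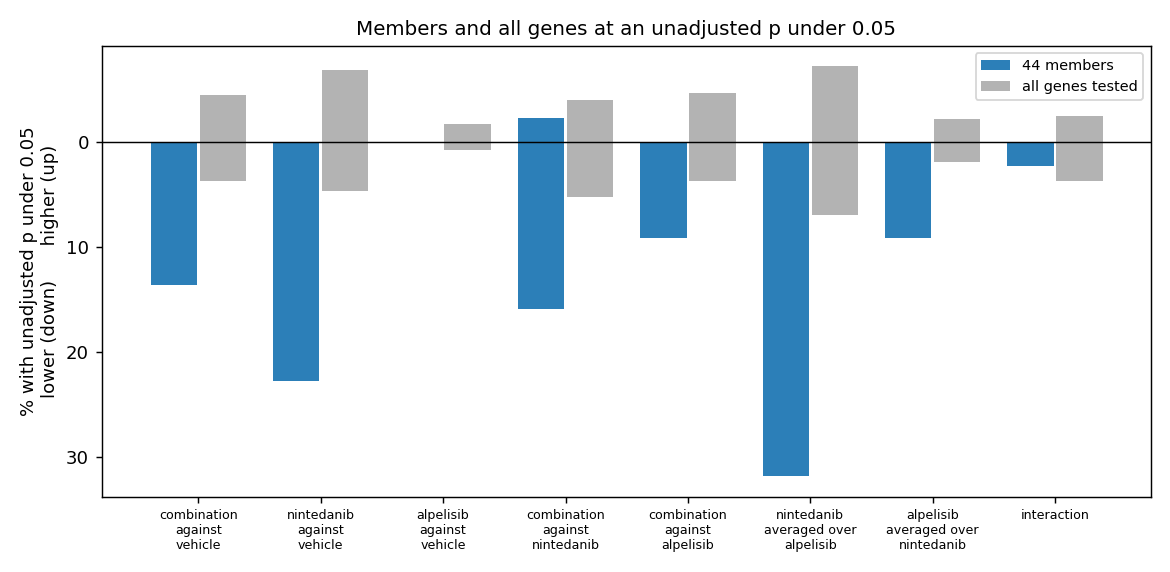
Share of the 44 genes (blue) and of all genes tested (grey) with an unadjusted p under 0.05 in each comparison, higher upwards and lower downwards from 0. The blue bars point down except for 1 gene in combination against nintedanib, and the bar for alpelisib against vehicle is empty.

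The plot of shares at an unadjusted p under 0.05 places these counts side by side. Adjacent bars are not independent, since the comparisons share libraries. The blue lower bars exceed the grey ones except in alpelisib against vehicle and in the interaction, and no blue bar holds a gene that passed the adjusted threshold.

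Other genes of the pathway were read from a longer list of 102 ribosome biogenesis genes outside the set, of which 99 were tested. With the combination, 83 of the 99 were below vehicle, where 46.5% of all genes tested were, with a median of -0.21. By limma 0 passed, and 17 were lower and 0 higher at an unadjusted p under 0.05, against the 3.69% and 4.47% of all genes. With nintedanib the median was -0.048, with 14 lower and 5 higher, where 4.7% and 6.88% of all genes were. With alpelisib the median was -0.0036 with 0 of either, where 0.793% and 1.69% of all genes were. By library the median was 0.047, -0.28, -0.31 and -0.35 in the combination tumours, so combination 1 stood apart here too, and -0.013, 0.14, -0.013 and -0.056 in the vehicle tumours.

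NAT10, which acetylates ribosomal RNA, had 1634, 1187, 824 and 808 in combination tumours against 1783, 1603, 1675 and 1497 in vehicle tumours (-0.62 ± 0.19, adjusted p = 0.505). TCOF1 (treacle), a partner of UBTF in ribosomal DNA transcription, had 4285, 2869, 1713 and 1531 against 5664, 3387, 4392 and 2981 (-0.74 ± 0.26, adjusted p = 0.528). Combination 2 to 4 were below all vehicle libraries in both genes. TSR2, which brings a ribosomal protein to the small subunit, differed by -0.44 ± 0.16 (adjusted p = 0.542) and PA2G4, a growth-regulated protein of ribosomal particles, by -0.45 ± 0.18 (adjusted p = 0.556).

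Ribosomal protein genes, whose products these factors assemble, were read beside them. Of 78 tested, 34 were below vehicle with the combination (46.5% of all genes), with a median of 0.050. At an unadjusted p under 0.05, 0 were lower and 9 higher, against 3.69% and 4.47% of all genes, and 0 passed by limma. Their library medians were 0.057, 0.20, 0.27 and -0.30 in combination tumours, so that combination 4 alone was low. With nintedanib alone 57 of the 78 were below vehicle (48.2% of all genes), with a median of -0.088. At an unadjusted p under 0.05, 1 was lower and 0 higher there, against 4.7% and 6.88% of all genes. With alpelisib alone 54 were below vehicle (48.9% of all genes), with a median of -0.073. MYC, the transcription factor best known for driving this pathway, had 647, 452, 689 and 412 in combination tumours against 357, 572, 673 and 770 in vehicle tumours, a difference of -0.087 whose sign turned when combination 4 or vehicle 4 was left out. With nintedanib alone the MYC difference was -0.34 ± 0.26 (adjusted p = 0.628, limma), and -0.57 to -0.18 without single libraries.

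Values of growth and oxygen genes stood beside these in the same libraries. The median over 18 proliferation genes was -0.11, -0.41, -0.68 and -0.71 in the combination tumours and 0.15, 0.10, -0.049 and -0.077 in the vehicle tumours, so combination 1 was again the highest of its group. The median over 15 hypoxia genes was 0.35, 0.56, 0.90 and 0.74 in the combination tumours and -0.11, -0.69, 0.53 and 0.46 in the vehicle tumours. With nintedanib alone the median fitted difference from vehicle was -0.40 for the proliferation genes and 0.43 for the hypoxia genes. With alpelisib alone it was -0.090 and -0.085. The median over 11 genes of the MYC network was 0.079, -0.14, 0.086 and -0.17 in the combination tumours and 0.12, -0.15, 0.18 and 0.12 in the vehicle tumours. None of these lists held a gene past the threshold, and their part in the values of the ribosome biogenesis genes was not tested. Squamous tumour markers, by contrast, had a median of 0.0082, 0.12, -0.28 and -0.032 in the combination tumours and 0.11, -0.25, 0.31 and 0.0095 in the vehicle tumours. Markers of fibroblasts, endothelium, leukocytes and muscle in the human table had a median of 0.72, 0.27, 0.26 and 0.42 over 21 genes in the combination tumours and -0.071, 0.58, -0.19 and 0.041 in the vehicle tumours.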

How the data were processed

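QuantSeq 3′ libraries (75-base reads, one read per transcript end) were sequenced on a NextSeq500, per the labels' protocols, and mapped apart to human and mouse. TopHat with hg19 and mm10 is named per the submitters' processing notes; the tools for counting and scaling and the annotation were not given in the sources used here. The deposited values are signal: gene counts that the authors divided by 1 size factor per library and species, since 100% of the values were whole multiples of 1 read within 0.01 read. No coordinates or sequences are given, because no annotation of that build was used here.

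Genes were kept where 4 or more libraries had values of 1 or more. Log2(value + 1) was fitted with 1 mean per group over all 16 libraries in limma 3.58.1 (lmFit, eBayes with trend; R 4.3.3), with 8 comparisons and Benjamini-Hochberg adjustment over 17663 genes at 0.05. The plan assumed counts and named this test for normalized values. Each count was set beside the same share of all genes tested. DESeq2 1.42.0, limma-voom and the quasi-likelihood test of edgeR 4.0.16 ran on recovered reads as alternatives. In simulated combination and vehicle libraries (17323 genes), 67 of 100 genes moved by log2 1 and 99 of 100 moved by log2 2 were recovered, with 10 false calls of 176. The moved genes were drawn from those at or above the median level, and noise was independent between genes. Shifts under log2 1 were not simulated.

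Members and lists (other ribosome biogenesis, ribosomal proteins, MYC network, proliferation, hypoxia, squamous and other cell type markers, host muscle) were chosen with earlier results of these data known. Named genes were those with the 4 smallest p per role with the combination, the 2 smallest per large role group in other comparisons, and the extremes against vehicle; other genes are named where a count of calls or a complex is spelled out, or for a contrast seen in the values. All 44 symbols matched the RefSeq gene table (GRCh38, names only). Replicate numbers were tested as a block as an alternative. Without molecular identifiers, read depth covers counting error alone.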

Additional observations from a re-analysis of the deposited data

Results flagged for a closer look

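Of 136 group values examined (34 results in 4 groups of 4 libraries), 10 had 1 library set far from the other 3 by the gap-to-range ratio, where chance alone gives about 1 in 20. None was weighed for a cause. Among combination tumours, library 1 was far above the others for NOLC1 (ratio 0.845) and NCL (0.850), and library 4 far below for POLR1C (0.841). Among nintedanib tumours, library 2 was low for FTSJ3 (0.834) and library 1 high for TCOF1 (0.865). Among alpelisib tumours, library 1 was high for POLR1A (0.914) and low for PES1 (0.932), and library 3 was low for POLR1B (0.892). Among vehicle tumours, library 3 was low for UBTF (0.953) and library 2 high for NOLC1 (0.837).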

How the results depend on the processing

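No gene of the set passed the adjusted threshold under any alternative run: quantile or TMM scaling, scaling to the human plus mouse total, no trend, edgeR, DESeq2, voom, no filter or a minimum of 10, a pseudocount of 0.1, only the groups compared, without genes correlated between human and mouse, without the 2 muscle-rich libraries, or without each library in turn. The median of the 44 genes ranged without single libraries from -0.33 to -0.22 for the combination against vehicle, -0.23 to -0.12 for nintedanib and -0.080 to 0.032 for alpelisib, and from -0.16 to 0.0054 and -0.34 to -0.18 for the combination against nintedanib and against alpelisib. It ranged from -0.098 to 0.033 for the interaction, -0.23 to -0.15 for the nintedanib average and -0.12 to -0.030 for the alpelisib average. The sign thus turned for alpelisib, the combination against nintedanib and the interaction, whose medians were within the spread between libraries (0.171 SD); the interaction was also 0.039 with the human plus mouse total. Calls over all genes by limma were 1 for the combination against alpelisib and 0 elsewhere. By DESeq2 they were 13, 79 and 1 for the combination, nintedanib and alpelisib against vehicle, 4 and 19 for the combination against nintedanib and against alpelisib, 10 for the interaction and 153 for the nintedanib average. Without the muscle-rich libraries they were 14 for the combination against alpelisib and 74 for the nintedanib average, which had 27 with the human plus mouse total. Leaving out single libraries gave up to 123 for the combination against nintedanib (without combination 4), 11 for the nintedanib average, 8 for the interaction, 4 for nintedanib and 1 for alpelisib. For nintedanib edgeR gave 2 calls, and no trend, no filter and only the groups compared gave 1 each. Without trend there were also 2 for the combination against nintedanib, 2 for the interaction and 1 for the alpelisib average, and without filter 1 for the combination against nintedanib. The call against alpelisib was lost by edgeR, voom, quantile scaling, no filter, a minimum of 10, a pseudocount of 0.1, the replicate block and only the groups compared. For MYC, the alpelisib difference of -0.19 ranged without single libraries from -0.41 to 0.041 (without alpelisib 4), and the combination difference of -0.087 from -0.31 to 0.056 (without vehicle 4), with 0.039 without combination 4; the cause was not tested. At an unadjusted p under 0.05 in either direction, the combination held 12 of the 44 genes with the human plus mouse total (9.13% of all genes). With only the groups compared it held 3 (5.7% of all genes). Same-numbered libraries correlated by -0.22 to 0.15 in 24 pairs, 2 of them over 0.1, and differently numbered ones by -0.24 to 0.29. The labels do not say what a shared number means, so these correlations cannot settle whether it marks a pairing. With the replicate block 0 of 44 genes passed in every comparison, while of all genes 8 passed for nintedanib, 1 for alpelisib and 3 for the interaction. Standard errors were 0.15 to 0.33 for the 44 genes between groups. Simulated shifts of log2 1 were recovered in 67 of 100 genes of at least median level, and smaller shifts were not simulated.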

Other observations

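The mouse table holds the same genes of the host cells in these tumours. All 44 counterparts were tested. With the combination their median difference from vehicle was 0.021 and 21 of 44 were below 0, against 0.030 and 46.9% for all mouse genes tested. By limma 0 of the 44 passed the adjusted threshold (9 of 17484 mouse genes). At an unadjusted p under 0.05, 1 of the 44 was higher (Utp20 at 0.83 ± 0.33) and 0 lower, where 3.39% of all mouse genes were lower. With nintedanib the median was 0.079 and 17 were below 0, against 0.020 and 47.9% for all mouse genes. Here 0 of the 44 and 0 of all mouse genes passed. At an unadjusted p under 0.05, 2 of the 44 were higher (Utp20 and Ncl) and 0 lower, where 2.97% of all mouse genes were lower. The share of all mouse genes that was higher was not counted, so the higher counts cannot be read against it. By library the host median was 0.19, -0.092, 0.077 and 0.0070 in the combination tumours and 0.13, 0.087, -0.013 and -0.025 in the vehicle tumours.

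For the combination against nintedanib the host median was 0.040 and 18 of 44 were below 0, against 0.013 and 48.7% for all mouse genes. At an unadjusted p under 0.05, 2 were lower and 1 higher, where 2.42% of all mouse genes were lower. The higher gene was Polr1b (1.47 ± 0.69, adjusted p = 0.939, limma). The lower ones were Npm1 and Nop58, at -0.78 ± 0.24 (adjusted p = 0.939, limma) and -0.64 ± 0.24 (adjusted p = 0.939). The human differences were -0.67 for NPM1 and -0.79 for NOP58. Within groups, human and mouse values correlated at 0.7 or more for 4 of the 44 genes (NOP2, NPM1, UTP15 and WDR12), 9.09%, where 10.1% of the 12707 genes with the same symbol did. The median correlation over the 44 genes was 0.40, and 0.26 over all those genes. Muscle markers in the human table were highest in the 2 libraries with the most host muscle reads, combination 1 and nintedanib 4 (1575 and 2417, against 81.1 to 229 in the others). For the 44 genes themselves, reads of the other species were not measured.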
